A study of Mus musculus with 2 samples.

Results

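The 10 genes described here make, load or control MHC class I molecules. They were chosen by symbol from the 32589 genes of the count matrices, for their known role, by a rule that uses no measured value, although earlier results of these data were known when they were chosen. They are the heavy chain genes *H2-K1* and *H2-D1*, the light chain gene *B2m*, the peptide transporter genes *Tap1* and *Tap2*, the tapasin gene *Tapbp*, the immunoproteasome genes *Psmb8*, *Psmb9* and *Psmb10*, and the transactivator gene *Nlrc5*. All 10 were found, and all 10 reached the minimum of 20 UMIs over both libraries in each cell class examined.

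MHC class I molecules sit on the surface of nearly every nucleated cell and show it short peptides from proteins made inside the cell, which CD8 T cells read. Peptides are cut by the proteasome, pumped into the endoplasmic reticulum by the TAP transporter and placed on the heavy chain with the help of tapasin. Interferons are known to raise the genes of this route together, partly through NLRC5, and exchange the catalytic subunits of the standard proteasome for those of the immunoproteasome.

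Single-cell RNA-Seq of CCA-bearing mouse livers addressed what PD-1 blockade alters in the TME when it is added to YAP/TAZ depletion. CCA was induced by hydrodynamic tail vein injection (HDTVI), which places plasmids in hepatocytes, here for an activated Notch receptor fragment and a membrane-bound AKT. Both libraries are of genotype shYT, in which doxycycline induces hairpins that target *Yap1* and *Wwtr1*, which encodes TAZ. One shYT library came from the PBS treatment and 1 from treatment with RMP1-14, a clone that blocks mouse PD-1. The transactivator for the shRNAs is driven by the ubiquitous *CAG* promoter, so tumor cells, stroma and immune cells could all be depleted, and PD-1 blockade without YAP/TAZ depletion was not analysed here. The labels give no animal number, sex, strain or shRNA line for either library. A figure legend of the study gives more than 1 sample per group, but cells were not tagged by animal, so those of a library could not be assigned to animals. Each group is 1 library with no replicate, so no test between the groups was possible, and all intervals cover counting error only.

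The PBS library held 19397 barcodes with 121713441 UMIs (unique molecular identifiers, each 1 captured transcript), while 19451 barcodes and 100807037 UMIs came from the anti–PD-1 library. Filters on detected genes and mitochondrial UMIs kept 15531 and 16360 cells, with a median of 3159 and 2990 UMIs. Cells were assigned to classes by marker genes, and a class name below means that a cell passed that gate. *Xist*, the RNA of the inactive X chromosome, had 18452 UMIs in the PBS cells and 11 in the anti–PD-1 cells, while Y-linked genes had 3113 and 15323, so the libraries also differ in the sex of their cells. For tumor cells and for monocytes and macrophages, the members' median is also given below in cells that carried Y-linked and no *Xist* UMIs, and for the other classes the part of sex was not tested. In tumor cells *Yap1* had 66 UMIs with PBS and 35 with anti–PD-1 (9.91 and 12.2 CPM, UMIs per 1000000 UMIs of the class), and *Wwtr1* had 82 and 24 (12.3 and 8.35 CPM). The libraries shared 219 barcodes, and 145 of these were kept in both.

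Of the members, 7 of 10 lie on mouse chromosome 17 within or close to the H2 complex (all positions are mm10, GENCODE vM21). *H2-K1* (ENSMUSG00000061232) spans chr17:33996017-34000347 on the reverse strand, and *H2-D1* (ENSMUSG00000073411) spans chr17:35262730-35267499 on the forward strand. *Tapbp* (ENSMUSG00000024308, chr17:33915899-33929292, forward) lies nearby. On the same chromosome, 4 genes of the route sit side by side: *Psmb9* (ENSMUSG00000096727, chr17:34181987-34187764, reverse), *Tap1* (ENSMUSG00000037321, chr17:34187553-34197225, forward), *Psmb8* (ENSMUSG00000024338, chr17:34197721-34201454, forward) and *Tap2* (ENSMUSG00000024339, chr17:34203527-34216321, forward). *Psmb9* and *Tap1* overlap at their starts on opposite strands, so reads from the overlap could be assigned to either gene if strand was not used in counting, which the sources do not state. *B2m* (ENSMUSG00000060802) lies at chr2:122147686-122153083 (forward), *Nlrc5* (ENSMUSG00000074151) at chr8:94434356-94527272 (forward) and *Psmb10* (ENSMUSG00000031897) at chr8:105935735-105938444 (reverse).

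Promoter windows (250 bases before to 50 after the start, RefSeq, GRCm38.p6) were given for 8 of the 10 genes and not for *Tap2* and *Nlrc5*. They are shown because NLRC5 is recruited to class I promoters by a module of short boxes, among them the X2 box and the CCAAT box bound by NF-Y. Annotated exons covered all 250 bases before the start for *H2-D1*, *Psmb8* and *Psmb9*, and 199 of them for *Tapbp*. For *Tap1* they covered the 225 bases checked. The *Tapbp* window lies inside the gene span given above. Searched on both strands, the X2 core TGACG was in the windows of 5 members (*H2-K1*, *H2-D1*, *B2m*, *Tap1* and *Psmb9*) and in 20.8% of all 32851 windows. CCAAT was in those of 6 members (the same 5 and *Tapbp*) and in 37.4% of all windows. The CCAAT match of *Tap1* and that of *Psmb9* are the same bases. The letters GAANNGAAA, searched for the interferon-stimulated response element, were in the windows of *H2-K1* and *H2-D1* and in 7.52% of all windows. Other forms of this element were not searched, so a window without a match, such as that of *B2m*, may still hold one. The kappa B core GGGATTCCC was also in the windows of *H2-K1* and *H2-D1* and in 0.353% of all. The gamma-activated site TTCNNNGAA was in the window of *Psmb8* and in 8.30% of all windows. The *B2m* window held a second X2 core, on the opposite strand and too near the window end for a stretch of 30 bases. The 4 distinct stretches of 30 bases around the other X2 cores (capitals) read as follows, on the strand that holds TGACG.

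H2-K1 (chr17:34000372-34000401, reverse): gtccggacactgtTGACGcgcagtcagctc

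H2-D1 (chr17:35262980-35263009, forward): gccgggacactgaTGACGcgctggcaggtc

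B2m (chr2:122147596-122147625, forward): gctaggagactggTGACGacctccggatct

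Tap1 and Psmb9, shared (chr17:34187457-34187486, forward): gcccagagacaggTGACGacagagggtcct

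In *H2-K1*, *H2-D1* and *B2m* the first base of TGACG lay 25 bases before the first base of an inverted CCAAT box (ATTGG), the same distance in all 3. This distance was chosen after the members' sequences were seen, and 31 of 32851 windows (0.0944%) held the pair at that distance, those of 27 genes. *H2-M3*, a nonclassical class I gene, was 1 of the 27. The stretch shared by *Tap1* and *Psmb9* had no such partner. The bases before the starts of *H2-K1* and *B2m*, which overlap no annotated exon, are printed to show the boxes in place. Capitals mark only matches to the letters of the 5 motifs as given above, on both strands.

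H2-K1 (chr17:34000348-34000597, reverse): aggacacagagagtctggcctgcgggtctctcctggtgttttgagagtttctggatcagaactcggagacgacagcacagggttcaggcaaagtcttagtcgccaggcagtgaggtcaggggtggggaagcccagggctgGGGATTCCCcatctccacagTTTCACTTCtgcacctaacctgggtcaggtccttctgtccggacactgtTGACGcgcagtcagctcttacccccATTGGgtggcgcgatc

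B2m (chr2:122147437-122147685, forward): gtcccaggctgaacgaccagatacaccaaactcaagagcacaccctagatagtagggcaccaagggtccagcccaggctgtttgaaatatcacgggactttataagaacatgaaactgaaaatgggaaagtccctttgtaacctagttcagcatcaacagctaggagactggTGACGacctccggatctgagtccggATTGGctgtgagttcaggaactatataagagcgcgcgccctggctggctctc

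A match is a description of letters and not a bound site. The measured levels of these genes follow.

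In tumor cells, each of the 10 genes was higher in the anti–PD-1 library than in the PBS library, by 1.86-fold to 3.35-fold in CPM. This class was gated on epithelial markers such as *Epcam*, *Krt19* and *Sox9*, led by *Krt18*, *Krt8* and *Clu*, and biliary epithelial cells, which share these markers, were not separated from it. It had 1427 cells with PBS and 820 with anti–PD-1, with a median of 2174 and 1554.5 UMIs. Pancreatic acinar cells, gated apart, numbered 0 with PBS and 77 with anti–PD-1. Whether other pancreatic cells passed the tumor cell gate was not tested. Ratios below are log2 ratios of CPM + 5, anti–PD-1 over PBS, and the added 5 CPM understates those of low genes. The median over the members was 1.23, with a median of the members' interval bounds of 1.03 to 1.35, against −0.05 over all 13022 genes with at least 20 UMIs. In all, 8 of the 10 genes were at least 2-fold higher on this scale, where 2.86% of all tested genes were. The count was 5 of 10 in tumor cells with at most 1% leukocyte lineage UMIs, where *H2-K1*, *Tapbp* and *Psmb8* also came under 2-fold, and 7 of 10, without *H2-K1*, with a mitochondrial limit of 20%, with no upper limit on detected genes or with classes from Leiden clusters. The 2.86% belongs to the main setting, and no share of all genes is given for these other sets of cells.

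The heavy chain gene *H2-K1* had 1753 CPM (1722 to 1786) in PBS and 3532 CPM (3463 to 3601) in anti–PD-1 tumor cells, a log2 ratio of 1.01 (0.97 to 1.05). *H2-D1*, the other classical heavy chain gene named here, had 1223 CPM (1196 to 1250) and 2987 CPM (2924 to 3051), for a log2 ratio of 1.28 (1.24 to 1.33). Over the whole class the intervals of the ratios do not overlap and that of *H2-D1* was the higher, but the order turned within 1 of the 2 tumor cell clusters compared. Of the UMIs of both heavy chains, *H2-K1* held 58.9% (58.2 to 59.6) with PBS and 54.2% (53.5 to 54.9) with anti–PD-1. The light chain gene *B2m*, whose product class I molecules need to reach the surface in normal amounts, had 2335 CPM (2298 to 2372) and 4493 CPM (4416 to 4572), for a log2 ratio of 0.94 (0.91 to 0.98). How reads shared by near-identical H2 genes were counted is not stated, so the split between *H2-K1*, *H2-D1* and the *H2-Q* genes is uncertain.

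The TAP transporter is a pair of *Tap1* and *Tap2* products, and over the whole class of tumor cells the intervals of their ratios do not overlap. *Tap1* had 75.6 CPM (69.1 to 82.5) in PBS and 202 CPM (186 to 219) in anti–PD-1 tumor cells, a log2 ratio of 1.36 (1.20 to 1.53). *Tap2* had 90.1 CPM (83.1 to 97.6) and 167 CPM (153 to 183), for a log2 ratio of 0.86 (0.69 to 1.03), the lowest of the 10 genes. Its interval overlaps those of *B2m*, *H2-K1*, *Tapbp* and *Nlrc5*. *Tapbp*, whose product tapasin bridges TAP and the empty class I molecule, had 59.9 CPM (54.2 to 66.1) and 141 CPM (128 to 156), for a log2 ratio of 1.17 (0.98 to 1.36).

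All 3 inducible catalytic subunits of the proteasome were more than 2-fold higher, although *Psmb8* had a log2 ratio of 0.99 (0.88 to 1.11), just under 2-fold, in tumor cells with at most 1% leukocyte lineage UMIs. *Psmb8* had 233 CPM (221 to 244) and 527 CPM (501 to 554), for a log2 ratio of 1.16 (1.06 to 1.27). *Psmb9* had 124 CPM (115 to 133) and 346 CPM (325 to 368), for a log2 ratio of 1.45 (1.32 to 1.58). *Psmb10* had 59.6 CPM (53.9 to 65.8) and 174 CPM (159 to 190), for a log2 ratio of 1.47 (1.29 to 1.65). *Psmb10* had the highest log2 ratio of the 10 genes, with an interval that overlaps those of *Psmb9*, *Tap1*, *Tapbp*, *Nlrc5* and *H2-D1*.

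*Nlrc5*, the gene of the class I transactivator, was counted least often, with 67 tumor cell UMIs under PBS and 97 under anti–PD-1. These are 10.1 CPM (7.80 to 12.8) and 33.8 CPM (27.4 to 41.2), a 3.35-fold difference, and the log2 ratio after adding 5 CPM was 1.36 (1.01 to 1.71).

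**Figure D1:**
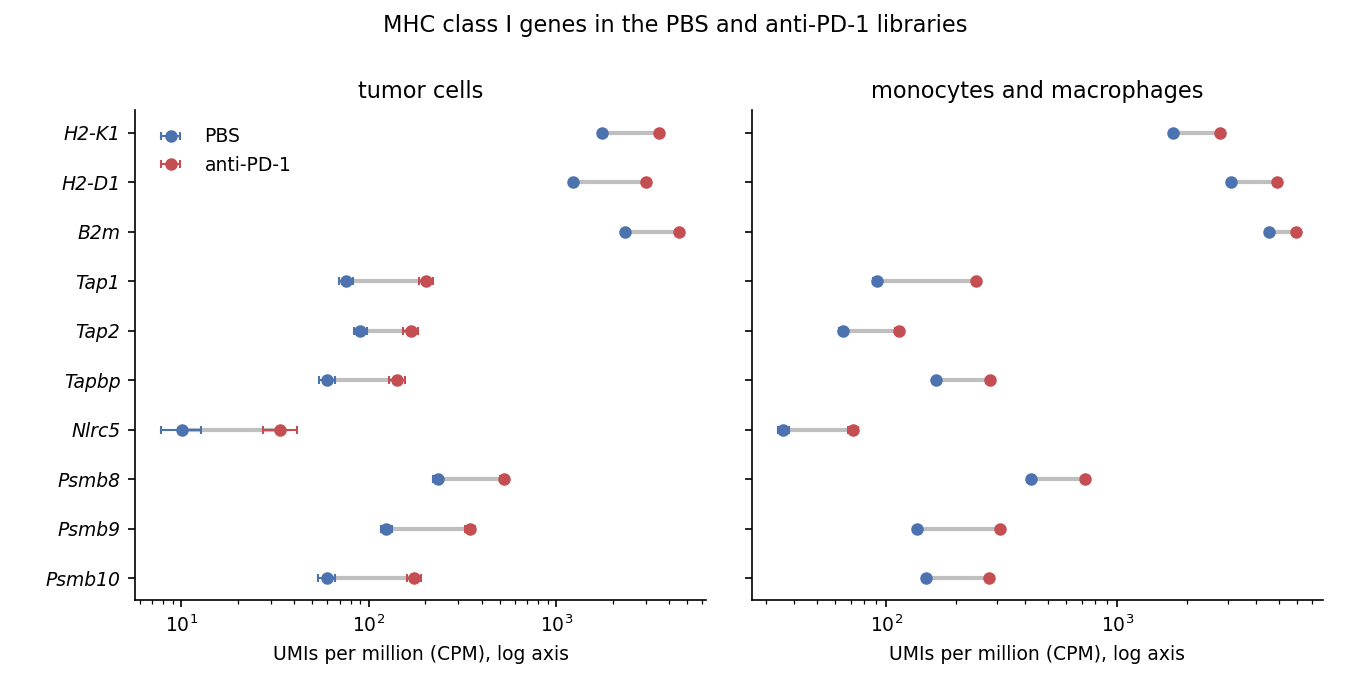
Level of each of the 10 genes (CPM, log axis) in tumor cells (left) and in monocytes and macrophages (right) of the PBS library (blue) and the anti–PD-1 library (red), with exact Poisson intervals, which are narrower than the symbol for most genes. In both panels each red point lies to the right of the blue one.

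The difference was seen over most of the range of cells. Each tumor cell was thinned to 1000 UMIs, which left 1224 PBS and 648 anti–PD-1 cells and excluded 203 and 172 shallower ones. The median thinned cell held 5 UMIs of the 10 genes with PBS and 12 with anti–PD-1, and the 10th and 90th percentiles were 1.3 and 11 in PBS and 5 and 21 in anti–PD-1. Cells with UMIs of at most 1 of the 10 genes made up 14.4% and 2.31%, and cells with at least 5 of them 6.37% and 34.0%. The distributions overlap, with all 3 of these percentiles higher in the anti–PD-1 library.

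*H2-K1* was seen in 70.5% (67.9 to 73.1) of thinned PBS tumor cells and 90.3% (87.7 to 92.4) of thinned anti–PD-1 tumor cells. The shares were 61.6% (58.8 to 64.3) and 90.3% (87.7 to 92.4) for *H2-D1*, and 81.0% (78.7 to 83.1) and 95.8% (94.0 to 97.2) for *B2m*. All 3 pairs of intervals are apart, and *H2-D1* differed most. *Psmb8* was seen in 22.3% and 41.7% of cells, *Psmb9* in 12.1% and 26.2%, and *Psmb10* in 5.64% and 13.9%. *Tap1* was seen in 6.21% and 14.7% and *Tapbp* in 6.54% and 13.7%. *Tap2* was seen in 8.74% (7.22 to 10.5) and 12.7% (10.2 to 15.5), with intervals that overlap. For *Nlrc5* the shares were 0.899% and 2.47%, with intervals of 0.45 to 1.60 and 1.42 to 3.98 that overlap as well. The intervals of both genes were apart in the 765 and 308 deeper cells that could be thinned to 2000 UMIs. *Tap2* had 14.9% (12.5 to 17.6) and 26.9% (22.1 to 32.3) there, and *Nlrc5* 1.57% (0.81 to 2.72) and 7.14% (4.53 to 10.6). Without thinning the shares ran from 4.13% (*Nlrc5*) to 93.0% (*B2m*) in PBS and from 8.54% to 97.9% in anti–PD-1 tumor cells, again higher for all 10 genes. No class that should lack these genes was available to measure free RNA.

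**Figure D2:**
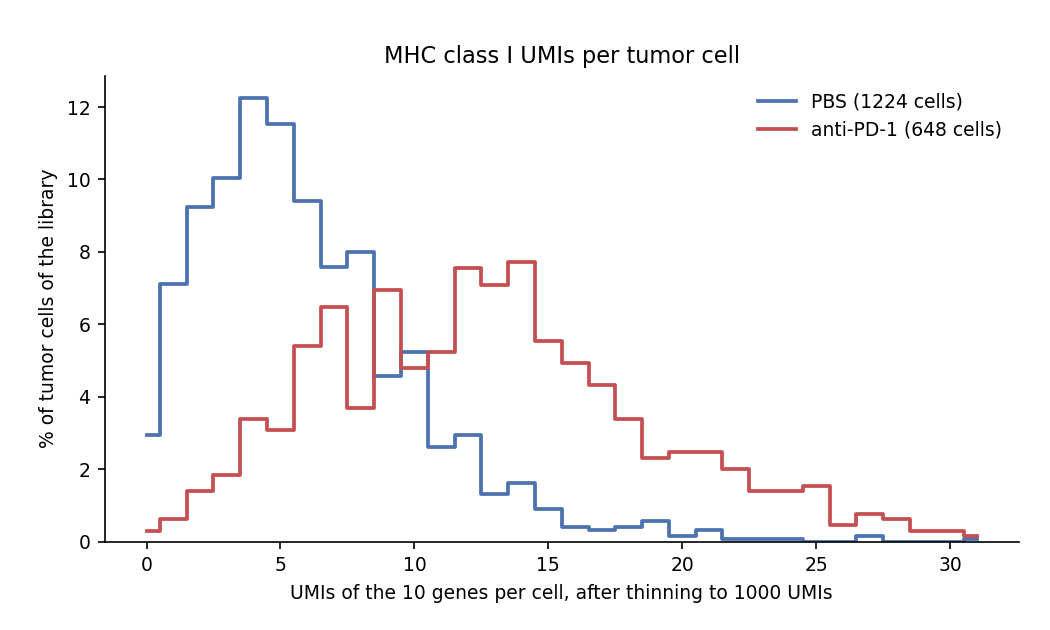
UMIs of the 10 genes per tumor cell after thinning to 1000 UMIs, as percent of the 1224 PBS cells (blue) and the 648 anti–PD-1 cells (red). The median cell held 5 UMIs with PBS and 12 with anti–PD-1.

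Transcripts of genes on a leukocyte list were also higher in anti–PD-1 tumor cells. All 12 leukocyte genes looked at (*Ptprc*, *Cd3e*, *Cd74*, *Lyz2* and others) were detected in tumor cells of both libraries, with a summed level of 1636 CPM in PBS and 6138 CPM in anti–PD-1, of which *Cd74* made up 771 and 4033 CPM. Set against gated leukocytes of the same library, their levels in tumor cells ranged from 3.31% to 6.56% (median 4.64%) in PBS and from 7.41% to 33.4% (median 10.6%) in anti–PD-1. At the median share, leukocyte RNA would give between 4.68% (*Tap2*) and 23.8% (*Nlrc5*) of the member's level in PBS tumor cells, and between 7.80% and 23.4% in anti–PD-1 tumor cells. After subtraction of that amount from each gene the members' median log2 ratio was 1.25, against 1.23 before it. Shares at the upper end of the range, up to 6.56% and 33.4%, were not subtracted, so a part of leukocyte RNA above the median share was not tested. In tumor cells with at most 1% of UMIs from leukocyte lineage genes (1395 and 613 cells), it was 1.08. These lineage genes include *Cd74*, and whether its RNA came from leukocytes or from the tumor cells was not tested.

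The members were also higher within narrower sets of tumor cells. Within cells of 1000 to 3000 UMIs the median was 1.19, and in cells with Y-linked and no *Xist* UMIs (79 and 249 cells) it was 1.14. All 14 genes of a dissociation stress list (*Fos*, *Atf3* and others) were higher in anti–PD-1 tumor cells, with a median log2 ratio of 1.82, and their part in the members' difference was not tested. Clusters of the unintegrated data divided the tumor cells unevenly, and only clusters 4 and 18 held at least 50 gated cells of each library. Tumor cells of other clusters had no within-cluster comparison, among them those of cluster 14 (706 PBS and 57 anti–PD-1 cells before gating). Cluster 4, led by *Gp2*, *Clca3a2* and *Gpx2*, held 48.4% of PBS and 81.3% of anti–PD-1 tumor cells, and the members' median within it was 1.25. Of all 956 PBS and 1387 anti–PD-1 cells of cluster 4, 690 and 667 passed the tumor cell gate. Cluster 18, led by *Dmbt1* and *Lgals4*, held 202 and 98 cells, and the median was 1.03, with 10 of 10 genes higher in each cluster. *H2-D1* had the higher ratio of the heavy chain genes in cluster 4 (1.23, against 0.92 for *H2-K1*) and *H2-K1* in cluster 18 (1.00, against 0.84 for *H2-D1*), a difference between clusters that was not tested.

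The balance of proteasome subunit RNAs can be read within a library, free of scaling, from the UMIs of each inducible subunit and the constitutive one it replaces. Exchange of subunits in assembled proteasomes was not measured. In tumor cells the inducible subunits *Psmb8*, *Psmb9* and *Psmb10* held 27.2% (26.4 to 28.1) of the UMIs of all 6 catalytic subunits with PBS and 52.0% (50.7 to 53.3) with anti–PD-1. *Psmb8* held 36.3% (34.9 to 37.8) and 62.7% (60.7 to 64.6) of its pair with *Psmb5*. *Psmb9* held 19.7% (18.5 to 20.9) and 42.1% (40.1 to 44.2) of its pair with *Psmb6*, and *Psmb10* held 23.1% (21.1 to 25.1) and 49.6% (46.4 to 52.7) of its pair with *Psmb7*. The intervals of the libraries do not overlap for any pair. The constitutive partners were lower or about level, with log2 ratios of −0.37 (−0.48 to −0.27) for *Psmb5*, −0.16 (−0.31 to −0.02) for *Psmb7* and −0.09 (−0.18 to 0.00) for *Psmb6*. After subtraction of leukocyte RNA the tumor cell shares were 25.7% and 50.2%.

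Across classes this share was lowest in tumor cells and CAFs of the PBS library (27.2% and 29.8%). Endothelial cells had 42.7% (40.9 to 44.5) and 68.7% (65.7 to 71.7), and CAFs 29.8% (27.8 to 31.9) and 48.0% (44.8 to 51.3). Monocytes had 53.8% and 71.0%, neutrophils 59.5% and 75.7%, macrophages 57.2% and 70.2%, and Kupffer cells 58.2% and 68.1%. T cells had 69.8% (69.1 to 70.4) and 71.1% (70.6 to 71.6), NK cells 65.8% and 67.2%, and cDC1s, the dendritic cells known for cross-presentation, 73.6% and 76.1%. Plasmacytoid dendritic cells had 70.6% (67.2 to 73.9) and 68.8% (65.5 to 71.8), the sole class with a lower share in the anti–PD-1 library, with overlapping intervals.

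**Figure D3:**
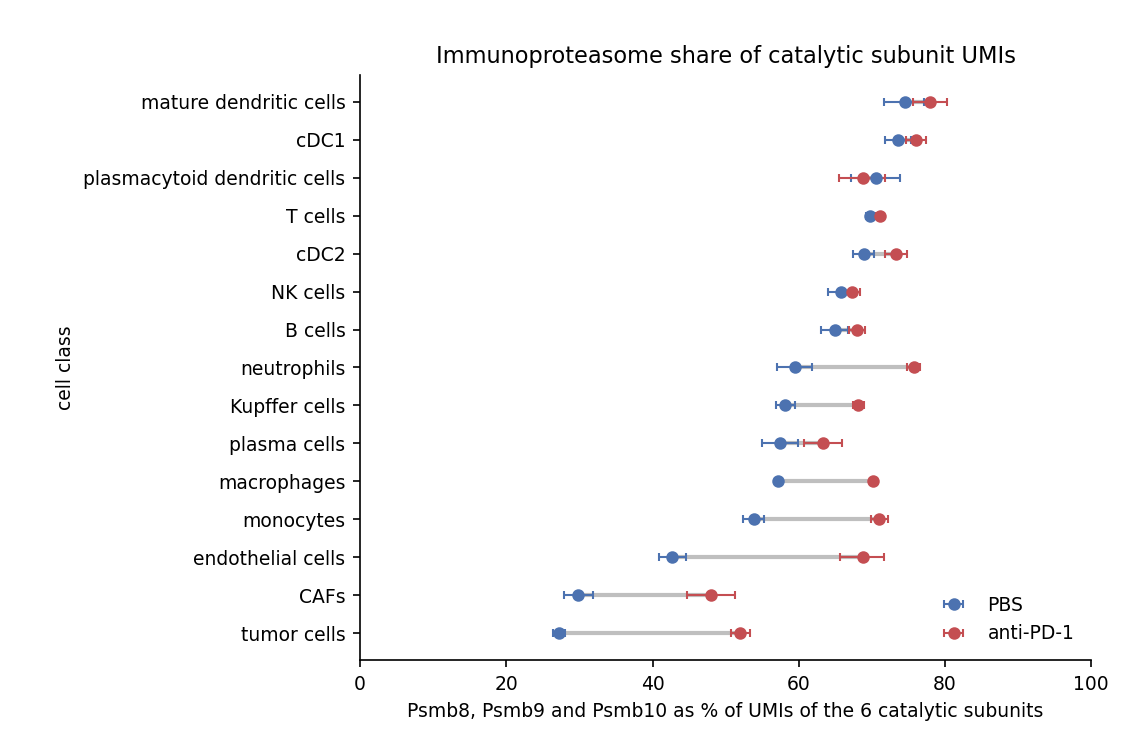
UMIs of *Psmb8*, *Psmb9* and *Psmb10* as percent of the UMIs of the 6 catalytic proteasome subunits (x axis) in each cell class (y axis) of the PBS (blue) and anti–PD-1 (red) library, with exact binomial intervals. Tumor cells had 27.2% with PBS and 52.0% with anti–PD-1, and T cells 69.8% and 71.1%.

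Monocytes and macrophages were gated as 4230 PBS and 2639 anti–PD-1 cells. Here too each of the 10 genes was higher with anti–PD-1, with a median log2 ratio of 0.77 (median bounds 0.73 to 0.82) against −0.09 over all 14917 tested genes. At least 2-fold higher were 2 of 10 genes, *Tap1* and *Psmb9*, where 2.20% of all genes were. The count was 5 in cells with Y-linked and no *Xist* UMIs, *Tap2*, *Nlrc5* and *Psmb10* being added, and 1, *Psmb9*, in cells of 1000 to 3000 UMIs. The 2.20% is that of the whole class, and no share of all genes is given for these smaller sets. *Tap1* had 90.6 CPM (87.5 to 93.8) in PBS and 243 CPM (237 to 250) in anti–PD-1 cells, a log2 ratio of 1.38 (1.32 to 1.44). *Psmb9* had 136 CPM (132 to 140) and 310 CPM (303 to 318), for a log2 ratio of 1.16 (1.11 to 1.21). These 2 genes stood above the other members, whose ratios ran from 0.40 (0.39 to 0.41) for *B2m* to 0.91 (0.81 to 1.01) for *Nlrc5*.

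Over the whole class the heavy chain genes had nearly the same ratio, though not in monocytes gated apart. *H2-K1* had 1734 CPM (1721 to 1748) and 2771 CPM (2749 to 2793), for a log2 ratio of 0.67 (0.66 to 0.69), and *H2-D1* had 3096 CPM (3077 to 3114) and 4922 CPM (4893 to 4952), also 0.67 (0.66 to 0.68). The *H2-K1* share of the pair was 35.9% and 36.0%. *Nlrc5* had 35.8 CPM (33.9 to 37.8) and 71.6 CPM (68.1 to 75.2). *Psmb8* had 421 and 727 CPM (log2 ratio 0.78), *Psmb10* 149 and 279 CPM (0.89), *Tap2* 65.0 and 113 CPM (0.76) and *Tapbp* 164 and 281 CPM (0.76).

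These cells were spread over different clusters in the libraries, so the class value combines differences in which clusters were present with differences within them. The clusters were formed from the expression of these same cells, and the members were not left out. A near-level ratio within a cluster can therefore follow from how the cluster was formed. Cluster 2, led by *Gpnmb*, *Cx3cr1* and *Trem2*, held 65.2% of the class in PBS and 4.36% in anti–PD-1. Cluster 10, led by the chemokine genes *Ccl12*, *Ccl8*, *Ccl7* and *Cxcl9*, held 2.81% and 36.8%. Within cluster 10 (119 and 970 cells) the members were close to level, with a median log2 ratio of 0.19 (median bounds 0.06 to 0.37) and 9 of 10 genes higher. Its PBS cells already had 204 CPM of *Tap1*, against 82.7 CPM in the PBS cells of cluster 2. Within cluster 2 (2760 and 115 cells) the median was 0.58 (median bounds 0.51 to 0.75), with all 10 genes higher.

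The *Vcan*-, *Chil3*- and *Fn1*-led cluster 11 (578 and 386 cells) showed the highest within-cluster median, 1.09 (median bounds 0.98 to 1.24), and *Tap1* in it had 83.6 and 282 CPM. Cluster 5, whose leading genes include the Kupffer cell markers *Clec4f* and *Vsig4* beside *Mmp12* and *Adamdec1*, held 5.63% of the class in PBS and 18.5% in anti–PD-1, and the median in it was 0.73. In cluster 9, led by *Ccl17* and the type 2 dendritic cell marker *Mgl2*, the median was 0.84, and in cluster 20, led by the granule genes *Elane* and *Mpo* of immature myeloid cells, it was 0.80. Cluster 12 (51 and 226 cells, a median of 1088 and 973 UMIs) was led by immunoglobulin and keratin genes that are foreign to macrophages. Its median was 0.50 (median bounds −0.09 to 1.04), with 9 of 10 genes higher. The differences between clusters were not tested. In cells of 1000 to 3000 UMIs (426 and 358 cells) the median of the class was 0.63, and in cells with Y-linked and no *Xist* UMIs (432 and 1483 cells) it was 0.95. The dissociation stress list was higher for 14 of 14 genes here too, with a median of 1.31, and its part in the difference was not tested.

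**Figure D4:**
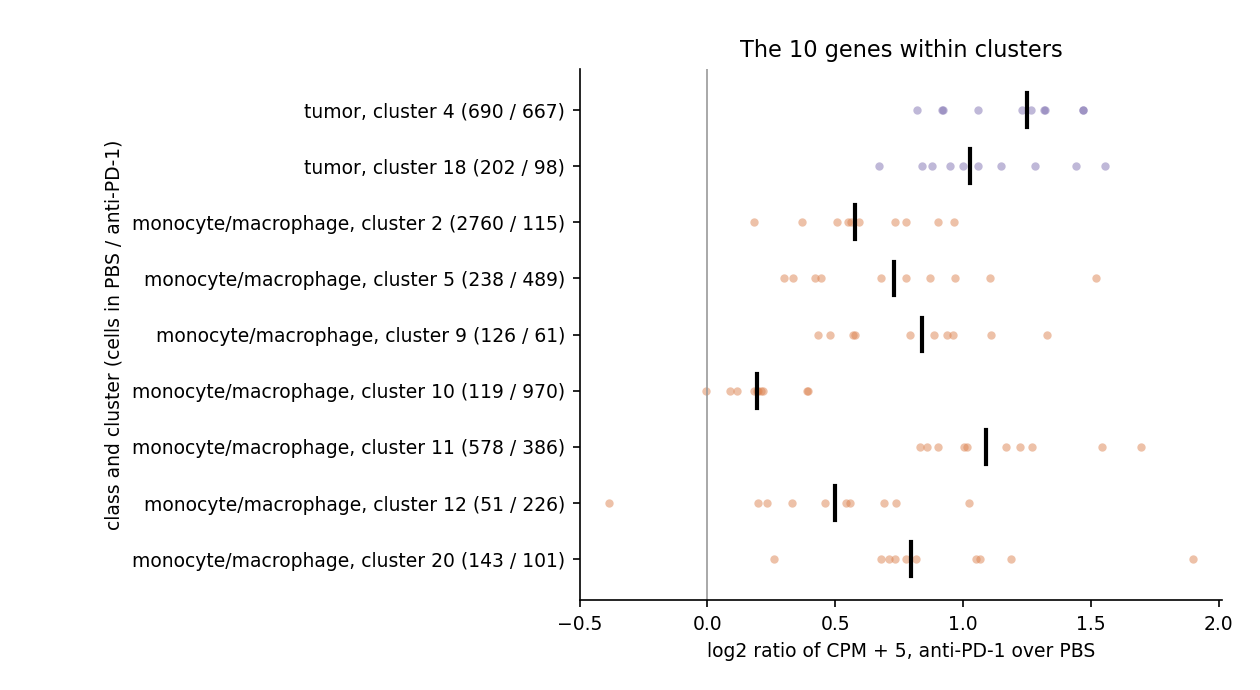
Log2 ratio of CPM + 5, anti–PD-1 over PBS, of each of the 10 genes (points) and their median (black bar) within each cluster that held at least 50 gated cells of both libraries, for tumor cells (purple) and monocytes and macrophages (orange). The medians are 1.25 and 1.03 in the tumor clusters and run from 0.19 (cluster 10) to 1.09 (cluster 11) in the myeloid ones.

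Gated apart, monocytes had a median of 1.01 with 5 of 10 genes at least 2-fold higher (3.61% of all genes), and macrophages a median of 0.74 with 2 of 10 (2.33%). Monocytes were led by *Chil3*, *Vcan* and *Mpo* and *Elane*, granule genes of immature myeloid cells. Their heavy chain genes differed, with a log2 ratio of 0.91 (0.85 to 0.97) for *H2-K1* and 0.69 (0.65 to 0.74) for *H2-D1*, and the *H2-K1* share of the pair was 34.2% (33.3 to 35.0) with PBS and 37.6% (36.8 to 38.4) with anti–PD-1. In neutrophils (1231 and 2993 cells), the short-lived granulocytes, the median was 0.93 and 3 of 10 genes were at least 2-fold higher, against 2.33% of all genes. *Tap1* in neutrophils had 69.2 and 205 CPM, a log2 ratio of 1.50 (1.27 to 1.74), and *Tapbp* 155 and 193 CPM, a ratio of 0.31 (0.14 to 0.48). Kupffer cells, the resident macrophages of the liver, had a median of 0.49 with 1 of 10 genes at least 2-fold higher (*Tap1*, 82.5 and 171 CPM), against 1.59% of all genes. The stress list had a median of 0.24 in neutrophils (8 of 14 genes higher) and 1.25 in Kupffer cells, and its part in the members' differences was not tested.

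Endothelial cells, which line the vessels through which T cells enter, had a larger median than tumor cells, 1.39 (median bounds 1.15 to 1.62, which overlap those of tumor cells), from 550 PBS and 103 anti–PD-1 cells. At least 2-fold higher were 9 of 10 genes, where 2.79% of all genes were, and *B2m* (4422 and 8093 CPM) had 0.87. *Tap1* had 61.1 and 256 CPM, a log2 ratio of 1.98 (1.65 to 2.31), and *Psmb9* 94.3 and 389 CPM, a ratio of 1.99 (1.72 to 2.26). *Nlrc5* rested on 32 and 28 UMIs (11.9 and 57.3 CPM), a ratio of 1.88 (1.22 to 2.50). CAFs (458 and 171 cells) had a median of 0.70, and 1 of 10 genes, *Psmb9* (44.4 and 107 CPM), was at least 2-fold higher, against 3.47% of all genes. *B2m* was level in CAFs, with 3044 and 3149 CPM and a ratio of 0.05 (−0.01 to 0.11), while *Tapbp* had 99.9 and 183 CPM. The median level of leukocyte genes, as percent of that in leukocytes, was 7.96% and 11.2% in endothelial cells and 7.92% and 9.09% in CAFs, and its part there was not tested. The stress list had medians of 1.69 and 2.15, and its part was not tested either.

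In lymphocytes and dendritic cells the members' median log2 ratios were at most 0.32. None of the 10 genes was 2-fold higher in T cells (1.20% of all genes), NK cells (2.15%), B cells (1.50%), plasma cells (2.80%), cDC1s (3.21%), cDC2s (2.47%), mature dendritic cells (4.55%) or plasmacytoid dendritic cells (5.58%). In T cells (3350 and 3619 cells) the median was 0.10, with 7 genes higher and 3 lower. *H2-D1* had 3035 and 4048 CPM in T cells, a ratio of 0.41 (0.40 to 0.43), and *H2-K1* 3559 and 3850 CPM, a ratio of 0.11 (0.10 to 0.13). *Psmb8* was near level there, with 819 and 789 CPM and a ratio of −0.05 (−0.09 to −0.01). Single genes stood higher in other classes. *Tap1* in plasma cells had 47.3 and 87.5 CPM, a ratio of 0.82 (0.43 to 1.21). *Psmb10* in cDC2s had 144 and 237 CPM, a ratio of 0.70 (0.49 to 0.91), and in cDC1s *Psmb10* had a ratio of 0.67 (0.37 to 0.97) and *Tap1* one of 0.66 (0.44 to 0.87). The members' medians were 0.13 in NK cells, 0.32 in B cells, 0.24 in plasma cells, 0.32 in cDC1s, 0.30 in cDC2s, 0.15 in mature dendritic cells and −0.06 in plasmacytoid dendritic cells. The last class had 3 genes higher and 7 lower, of which *B2m* and *Tapbp* had intervals below 0. The stress list had medians of 0.64 in T cells, 0.61 in NK cells, 0.46 in B cells, 1.21 in plasma cells, 1.11 in cDC1s, 0.89 in cDC2s, 0.90 in mature dendritic cells and 0.67 in plasmacytoid dendritic cells, and its part in the members' ratios was not tested. All-gene medians in these classes ran from −0.19 to 0.00, and from −0.26 (neutrophils) to −0.01 (CAFs) in the others, so in most classes the members' ratios stand slightly higher relative to all genes than they are printed.

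**Figure D5:**
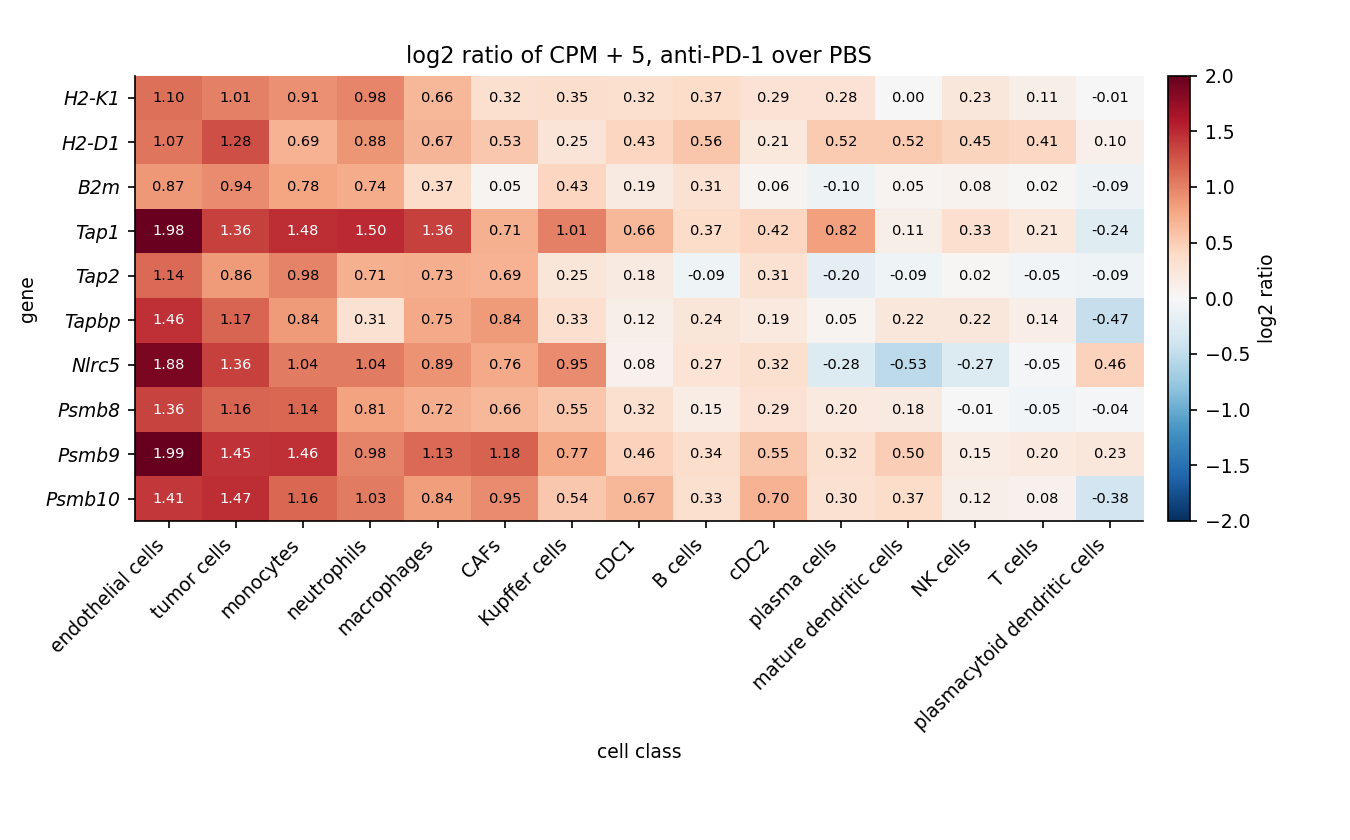
Log2 ratio of CPM + 5, anti–PD-1 over PBS, of each gene (rows) in each cell class (columns, ordered by the median over the genes), with the value in each cell and red for higher in the anti–PD-1 library. Endothelial and tumor cells have medians of 1.39 and 1.23, and T cells and plasmacytoid dendritic cells 0.10 and −0.06.

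Gene by gene over the 15 separate classes, *H2-D1* and *Psmb9* were higher in the anti–PD-1 library in 15, *Tap1*, *Tapbp* and *Psmb10* in 14, *H2-K1* and *B2m* in 13, *Psmb8* in 12, *Nlrc5* in 11 and *Tap2* in 10. *Tap1* was at least 2-fold higher in 6 classes, more than any other member, and *B2m* in 0. *Nlrc5* had the widest spread of levels, from 7.34 CPM in CAFs to 232 CPM in mature dendritic cells of the PBS library, with T cells next at 112 CPM. Mature dendritic cells were also highest in PBS for *B2m*, *Tap1*, *Tap2*, *Tapbp* and *Psmb8*, and NK cells for *H2-K1*. Of these genes, all but *B2m* had a highest class whose interval overlapped that of the next class.

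Tumor cells stood low in most of these orders in the PBS library. They were last of 15 classes for *B2m* and *Tapbp*, 14th for *H2-D1*, *Nlrc5* and *Psmb10*, and 13th for *Psmb8*. For *Psmb9* they were 12th, for *Tap1* 11th, for *Tap2* 9th and for *H2-K1* 8th. In the anti–PD-1 library they were 14th for *Tapbp*, 13th for *Nlrc5*, 12th for *H2-D1*, 11th for *Psmb8*, and 10th for *B2m* and *Psmb10*. For *Tap1* they were 9th there, for *H2-K1* and *Psmb9* 5th and for *Tap2* 4th. Many neighbours in the order could not be told apart: intervals of adjacent classes overlapped for 11 of the 14 neighbouring pairs of *Nlrc5* and 5 of those of *B2m* in PBS. For *B2m* in PBS, CAFs (3044 CPM) and monocytes (3115 CPM) overlapped each other, and tumor cells (2335 CPM) lay below both. Over the 15 classes, those with a low median level of the members in PBS tended to have a high ratio (Pearson −0.64, Spearman −0.68), a description in which the PBS value enters both measures.

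Other genes of the route were taken from lists. Of these the nonclassical class I genes had the highest median in tumor cells and in monocytes and macrophages, though not in every class. In tumor cells 12 of 15 had enough UMIs, 6 were at least 2-fold higher (2.86% of all genes) and the median log2 ratio was 0.72. *H2-T23*, the mouse gene of Qa-1, had 117 and 444 CPM, a ratio of 1.87, and *H2-Q7*, a Qa-2 gene, had 143 and 518 CPM (1.82). *Cd1d1*, which presents lipids, had 11.4 and 10.4 CPM, a ratio of −0.09 (−0.52 to 0.35), and *H2-T3* 2.25 and 2.09 CPM (−0.03). *H2-M3*, named for its promoter and not by its rank, had 12.2 and 30.3 CPM, a ratio of 1.04. In monocytes and macrophages 6 of 12 were at least 2-fold higher (2.20% of all genes) and the median was 0.96.

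Loading and trimming factors differed less. Of 10 in tumor cells, 1 was at least 2-fold higher (2.86% of all genes), *Tapbpl*, the gene of the tapasin relative TAPBPR, with 33.4 and 76.6 CPM (1.09), and the median was 0.23. *Erap1*, which trims peptides in the endoplasmic reticulum, had 52.6 and 85.6 CPM (0.65), and *Sec61a1*, a translocon subunit, 156 and 138 CPM (−0.17). The median in monocytes and macrophages was 0.13. Of the 4 genes of proteasome activation and assembly none was 2-fold higher in tumor cells (2.86% of all genes) or in monocytes and macrophages (2.20%). Their medians were 0.43 in tumor cells and 0.54 in monocytes and macrophages. *Psme1* (229 and 404 CPM, 0.80) and *Psme2* (222 and 387 CPM, 0.79), which encode the interferon-responsive activator, were higher in tumor cells, while *Psme3* had −0.20 (−0.42 to 0.03). Among 18 other proteasome subunits in tumor cells none was 2-fold higher (2.86% of all genes) and 16 had ratios under 0. Their median was −0.20, against −0.05 over all tested genes, and *Psma1* had the highest ratio, 0.11 (−0.02 to 0.24). In monocytes and macrophages the same 18 had a median of 0.11.

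Among 18 regulators of class I and class II genes, 4 were at least 2-fold higher in tumor cells (2.86% of all genes) and the median was 0.37. *Irf1*, an interferon-induced activator, had 32.9 and 262 CPM (2.82), *Ciita*, the class II transactivator and a relative of NLRC5, 4.81 and 21.6 CPM (1.44), and *Stat2*, a transducer of type I interferon signals, 21.8 and 64.7 CPM (1.38). *Ciita* and *Stat2* were named after their values were seen. *Nfyc*, a subunit of the CCAAT-binding NF-Y, had 35.3 and 28.5 CPM (−0.27, with an interval of −0.59 to 0.05). In monocytes and macrophages the median of the list was 0.05, with *Irf1* at 86.0 and 366 CPM (2.03) and *Ciita* at 59.0 and 67.5 CPM (0.18). Of 7 genes for the interferon-gamma receptor and its kinases and brakes, 1 was at least 2-fold higher in tumor cells (2.86% of all genes) and the median was 0.27. *Socs3*, a brake, had 19.4 and 114 CPM (2.29) in tumor cells and *Ifngr2*, a receptor chain, a log2 ratio of −0.17 (−0.39 to 0.05). In monocytes and macrophages the median of these 7 was 0.32 and 2 were at least 2-fold higher (2.20% of all genes), *Socs3* (1.51) and *Socs1* (1.41), another brake. The receptor chains *Ifngr1* (−0.59, with an interval of −0.63 to −0.54) and *Ifngr2* (−0.32, −0.38 to −0.26) and the kinase gene *Jak1* (−0.27, −0.32 to −0.21) were lower there. *Socs1*, *Ifngr1* and *Jak1* were named after their values were seen. *Ifng*, the cytokine itself, had 81.8 and 201 CPM in T cells and 185 and 408 CPM in NK cells.

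Among the 10 genes whose ratios were most like the members' mean over 12 classes with at least 100 cells in each library, among 7629 genes with at least 20 UMIs in each, were *Gbp7* (Pearson 0.97), *Gbp2* (0.96), *Igtp* (0.96), *Irgm1* (0.95), *AW112010* (0.95), *Cpq* (0.92), *Rnf31* (0.92), *Gbp3* (0.91) and *Zbp1* (0.91). These correlations are descriptions, since the classes share 2 libraries. Members themselves had values from 0.83 (*H2-D1*) to 0.99 (*Psmb8*), with their own ratio part of the mean. In tumor cells *Gbp2* had a log2 ratio of 2.90 and *Igtp* 3.00, above all 10 members.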

How the data were processed

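Livers were dissociated and sequenced with the Singleron GEXSCOPE platform, and the authors made the deposited counts (UMIs per gene and barcode, raw) with Cell Scope against mm10. The submitters' processing notes also name Seurat 4.3. The counts are not normalized, and no column of other samples was present. Here, cells with 500 to 5000 genes and at most 10% mitochondrial UMIs were kept. Each cell was given the class, of 20, with the highest marker score, at least 3 detected markers and 1.25 times the best score of another lineage, which left 14395 of 15531 PBS and 14820 of 16360 anti–PD-1 cells. Doublets were left out only by this gate. A Scrublet-type score marked 1.51% and 2.52% of cells and served as an alternative. Its thresholds caught only 17.1% of simulated doublets with PBS and 26.3% with anti–PD-1, so most doublets could remain.

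UMIs were summed per library and class with at least 50 cells in each library, and given as CPM with exact Poisson 95% intervals. Ratios are log2 of (CPM + 5), with bounds from the Clopper-Pearson interval of the UMI split, for genes with at least 20 UMIs. Intervals on shares are Clopper-Pearson. With 1 library per group no test was run. All 10 members were described, at most 4 genes per list (those with the highest and lowest ratio in tumor cells), and the 10 genes most like the members. Outside this rule, *H2-M3* was named for its promoter, and *Ciita*, *Stat2*, *Socs1*, *Ifngr1* and *Jak1* after their values were seen. The values of 1 gene are not reported here. The members and lists were chosen with earlier results of these data known. Gene identifiers matched GENCODE vM21 for 32445 of 32589. Python 3.11.15, scipy 1.17.1, scanpy 1.11.5 and leidenalg 0.10.2 were used, and the ratio script was checked on simulated data.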

Additional observations from a re-analysis of the deposited data

How the results depend on the processing

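No paired analysis was possible because each group is 1 library, and for the same reason no library could be left out. The tumor cell median of 1.23 ranged from 1.08 to 1.32 over its alternatives, and the members' values there were above 0 in 130 of 130 cases (110 of 110 in monocytes and macrophages). Of the 130, 10 came from leaving out marked doublets, which removed no gated tumor cell and so tests nothing there. The monocyte and macrophage median of 0.77 was 0.95 among cells showing Y-linked UMIs but no *Xist*, 0.86 under median-ratio scaling and 0.63 in cells with 1000 to 3000 UMIs. The immunoproteasome difference of 24.8 percentage points in tumor cells was 22.3 in cells with at most 1% leukocyte lineage UMIs. The share of tumor cell genes at least 2-fold higher, 2.86%, was 1.89% with a minimum of 1 UMI and 4.90% with 1 CPM added. The causes were not tested. The limits on depth and leukocyte UMIs, and the subtraction for the share, were chosen after seeing the data. Tumor cells with no leukocyte lineage UMI numbered 93 and 4, too few for a value.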
